A study of Mus musculus with 14 samples.

Results

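The genes for the scaffold of the inhibitory postsynapse and for the transporters that set neuronal chloride were followed in dentate gyri of mouse slice cultures with and without the amyloid precursor protein. The 6 genes were chosen by symbol, namely Gphn, Lhfpl4, Iqsec3, Shisa7, Slc12a5 and Slc12a2, out of 55291 gene rows in each count table, and all 6 passed the filter on low counts that left 22150 genes for testing. The ratio of Slc12a5 to Slc12a2 was followed beside them. Each of 14 libraries held polyadenylated RNA from the dentate gyrus of 1 organotypic culture of entorhinal cortex and hippocampus, cut out with a scalpel. Cultures were prepared at postnatal day 4 to 5 and grown for at least 18 days. The wildtype group (6 libraries) came from C57BL/6J animals (APP+/+), and the APPko group (8 libraries) from APP-deficient animals of a published line (APP-/-), whose deleted stretch of the gene the labels do not give. The sample titles name a strain for wildtype only, so from them strain background and App genotype cannot be told apart. The labels name no treatment, and they do not say which cultures came from the same animal, so p-values measure the spread between cultures.

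At an inhibitory synapse, GABA opens a chloride channel, and the receptor is held under the release site by a lattice of gephyrin, the product of Gphn. Lhfpl4 encodes a small membrane protein that joins the receptor to neuroligin-2, Iqsec3 encodes an exchange factor for the GTPase Arf6 that binds gephyrin, and Shisa7 encodes an auxiliary protein of GABA-A receptors. Whether the open channel hyperpolarises the cell depends on internal chloride. Slc12a5 encodes KCC2, the neuronal potassium-chloride cotransporter that carries chloride out, and Slc12a2 encodes NKCC1, the sodium-potassium-chloride cotransporter that carries it in and is also found in glia and epithelia. A rising level of KCC2 against NKCC1 accompanies the maturation of GABA signalling in the young hippocampus.

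The start regions of Iqsec3, the only one of the 6 genes called in the fit on all 14 libraries, and of Slc12a5, which RefSeq lists with 2 start sites, are printed to show what stands before the counted transcripts. Each runs from 250 bases before to 50 bases after the start, 5′ to 3′ on the gene's strand, on GRCm38.p6. Iqsec3 lies on the minus strand at chr6:121473629-121473928, and Slc12a5 on the plus strand at chr2:164960596-164960895 and at chr2:164967738-164968037. Capitals mark 3 short motifs on either strand, namely the GC box, whose letters are GGGCGG, the CCAAT box, named for its letters, and the E-box, searched as CACGTG.
Iqsec3: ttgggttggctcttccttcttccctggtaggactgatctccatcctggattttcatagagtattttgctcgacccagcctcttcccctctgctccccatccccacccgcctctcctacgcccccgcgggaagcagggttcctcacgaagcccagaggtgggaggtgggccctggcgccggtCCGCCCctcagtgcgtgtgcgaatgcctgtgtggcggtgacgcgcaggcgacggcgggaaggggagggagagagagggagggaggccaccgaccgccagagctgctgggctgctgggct
Slc12a5 first start: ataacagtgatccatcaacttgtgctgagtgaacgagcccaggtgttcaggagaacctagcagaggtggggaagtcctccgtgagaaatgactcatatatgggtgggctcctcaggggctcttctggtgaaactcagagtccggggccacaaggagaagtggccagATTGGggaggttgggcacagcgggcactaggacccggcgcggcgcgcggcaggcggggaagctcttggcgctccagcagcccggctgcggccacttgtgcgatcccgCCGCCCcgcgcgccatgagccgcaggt
Slc12a5 second start: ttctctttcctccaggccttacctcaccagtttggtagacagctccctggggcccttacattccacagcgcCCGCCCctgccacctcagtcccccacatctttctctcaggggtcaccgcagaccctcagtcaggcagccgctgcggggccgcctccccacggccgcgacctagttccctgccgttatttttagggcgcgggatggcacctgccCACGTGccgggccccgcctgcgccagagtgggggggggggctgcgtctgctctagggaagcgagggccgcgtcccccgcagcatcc
The windows had 66.0%, 63.7% and 68.3% GC, against a median of 52.7% over 32851 RefSeq promoters of mouse. All of them held a GC box, found in 35.7% of all promoters of that length. The first Slc12a5 window also held a CCAAT box (37.4% of all promoters) and the second an E-box (7.15%). None held the letters TATAAA (13.6%) or the cyclic AMP element TGACGTCA (1.79%), which says only that these letters are not in these windows. The counts are summed over each gene, so transcripts from the upstream and the downstream Slc12a5 start were not told apart.

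Depth ran from 16686909 to 31031126 counts per library. Levels are given in CPM, the count scaled to a common library total after TMM adjustment, with SDs over libraries. App itself stood at 809 ± 131 CPM in the 6 wildtype libraries, while the 8 APPko libraries had 214 ± 17.9 CPM, and the ranges did not overlap. The header of each count column ends in f or m, whose meaning the labels do not give. 3 wildtype and 7 APPko libraries carried f, and 3 wildtype libraries and 1 APPko library carried m. Wildtype libraries 2 and 3, both f, stood apart (TMM factors 0.852 and 0.847, the other 12 libraries 0.976 to 1.09), and values without them are given beside many of the results. Dentate granule cell markers, 6 of 6 measured, summed to 293 to 548 CPM in wildtype and 312 to 501 CPM in APPko, with Prox1 at 158 and 151 CPM in the mean. The 4 markers of CA pyramidal cells summed to 21.1 to 57.6 and 35.8 to 55.7 CPM. In whole tissue, fewer cells of a type and less RNA per cell cannot be told apart.

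Iqsec3 rose in APPko, and none of the other scaffold and transporter genes passed the test. Its level was 40.9, 22.04, 25.9, 44.4, 30.8 and 29.5 CPM in wildtype libraries 1 to 6. In APPko libraries 1 to 8 it was 61.1, 56.9, 45.6, 42.7, 57.5, 47.8, 51.8 and 57.1 CPM. 7 of 8 APPko libraries lay above every wildtype library, and APPko library 4 lay below wildtype library 4 only. The means were 32.2 ± 8.69 CPM (SD, n = 6) and 52.6 ± 6.62 CPM (SD, n = 8), a 1.63-fold higher level (log2 fold change 0.70, SE 0.14, 95% interval 0.40 to 1.01, edgeR quasi-likelihood test, Benjamini-Hochberg adjusted p = 0.025). Iqsec3 was thus 1 of 6 genes called, where 2.35% of all tested genes were called in either direction and 0.944% as higher. The 6 genes were chosen with earlier results of these data known, so this count is a description only. Iqsec3 ranked 94th by p among 22150 genes. The gene (ENSMUSG00000040797.16, chromosome 6, 121372933 to 121473678, minus strand) has 13.577 kb of annotated exon sequence and shares no exon with another gene.

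The lowest Iqsec3 values were those of wildtype libraries 2 and 3. Without both, the log2 fold change was 0.53 (SE 0.13) and the edgeR adjusted p was 0.098, in a fit that called 0.147% of all tested genes and none of the 6 genes. Without a single library the log2 fold change stayed between 0.62 and 0.82. The adjusted p was then 0.052 without wildtype library 2, 0.061 without wildtype library 3, and 0.052, 0.052, 0.061 and 0.054 without APPko libraries 1, 2, 5 and 7, and the gene passed in the other 8 of 14 fits. Among f libraries alone, all 7 APPko libraries lay above all 3 wildtype libraries (log2 fold change 0.81, edgeR adjusted p = 0.0091). These wildtype libraries were 1, 2 and 3, so both low ones are among them, and the fit called 3672 of 23580 tested genes. The single APPko m library, at 57.1 CPM, lay above the m wildtype libraries at 29.5 to 44.4 CPM. With a per-library trend over the GC content of transcripts removed, the log2 fold change was 0.52 (adjusted p = 0.049).

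**Figure D1:**
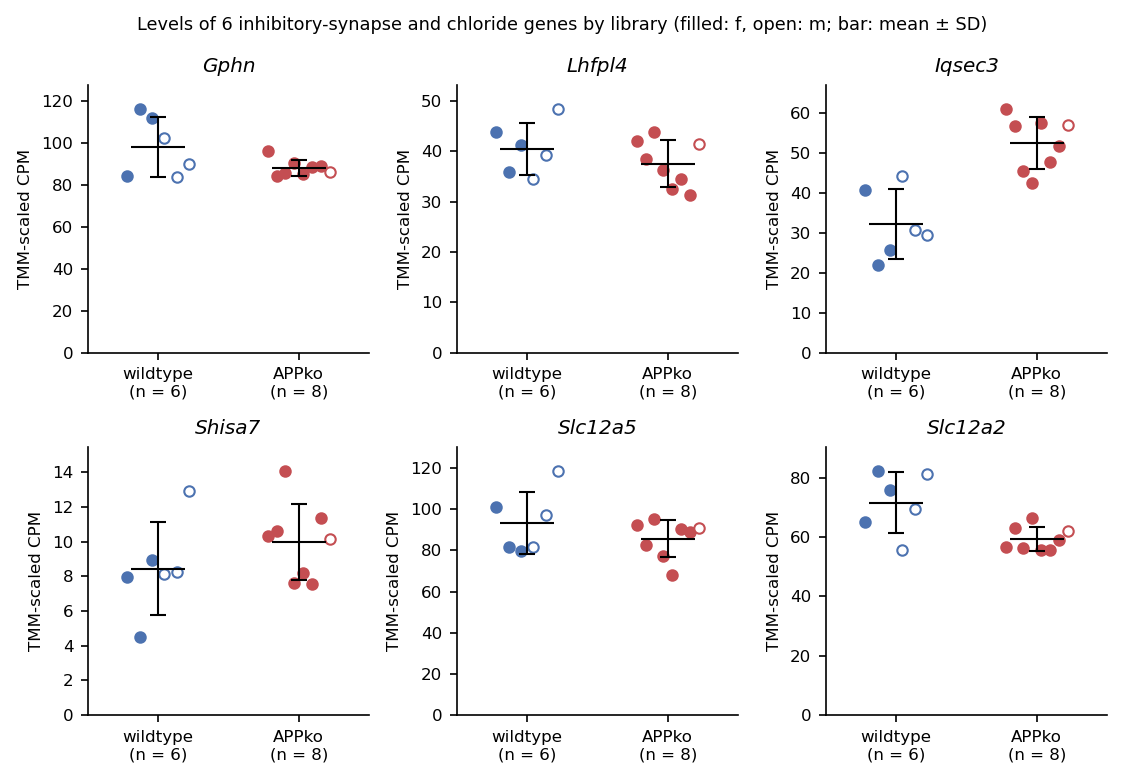
Level of each of the 6 genes in TMM-scaled CPM (vertical axes, from 0) in 6 wildtype and 8 APPko libraries, with points for libraries (filled for header suffix f, open for m) and bars for mean ± SD. Iqsec3 lies at 22.04 to 44.4 CPM in wildtype and 42.7 to 61.1 CPM in APPko, while the ranges of the other genes overlap more widely.

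Gphn, which encodes gephyrin and serves in every tissue as an enzyme of molybdenum cofactor synthesis, stood at 84.2, 116, 112, 102, 83.6 and 90.0 CPM in wildtype libraries 1 to 6. In APPko libraries 1 to 8 it stood at 96.1, 84.2, 85.8, 90.3, 85.3, 88.6, 88.9 and 85.9 CPM. The high values were those of wildtype libraries 2, 3 and 4, and the 2 ranges overlapped. The wildtype mean was 98.1 ± 14.2 CPM (SD, n = 6) and that of APPko 88.1 ± 3.83 CPM (SD, n = 8), with a log2 fold change of -0.15 (95% interval -0.35 to 0.04, edgeR adjusted p = 0.36). Without wildtype libraries 2 and 3 the log2 fold change was -0.03. The coefficient of variation was 14.5% in wildtype and 4.35% in APPko. Gphn (ENSMUSG00000047454.12) spans chromosome 12 from 78226379 to 78684772 on the plus strand. 147 bp of its exons, 3.92%, overlap the noncoding gene Gm48226 on the other strand, and the strand setting of the counting is not given in the sources used here.

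Lhfpl4, the link between receptor and neuroligin-2, stood at 43.8, 35.8, 41.2, 34.4, 39.3 and 48.4 CPM in wildtype libraries 1 to 6. In APPko libraries 1 to 8 it stood at 42.0, 38.5, 43.9, 36.3, 32.6, 34.4, 31.2 and 41.4 CPM. The libraries of both genotypes were mixed over the whole range, with wildtype library 6 at its top and APPko library 7 at its foot. The log2 fold change was -0.11 (95% interval -0.33 to 0.11, edgeR adjusted p = 0.605). Lhfpl4 (ENSMUSG00000042873.11) lies on the same chromosome as Iqsec3, at 113168090 to 113195384 on the minus strand.

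Shisa7, the auxiliary protein of GABA-A receptors, had the lowest counts, 98 (wildtype library 2) to 314 (APPko library 7) per library, where counting error alone reaches 10.1%. Its level was 7.96, 4.50, 8.95, 8.15, 8.23 and 12.9 CPM in wildtype libraries 1 to 6. The APPko libraries 1 to 8 had 10.4, 10.6, 14.1, 7.61, 8.21, 7.58, 11.4 and 10.1 CPM. Wildtype library 2 was lowest and APPko library 3 highest, and the other values overlapped. The log2 fold change was 0.24 (95% interval -0.16 to 0.65, edgeR adjusted p = 0.51). It was 0.11 without wildtype libraries 2 and 3 and 0.03 with the GC trend removed. Shisa7 (ENSMUSG00000053550.13) lies on chromosome 7 from 4825552 to 4844696 on the minus strand. None of the 6 genes had ranges that did not overlap between genotypes, where 1.12% of all tested genes did.

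Slc12a5, which carries chloride out of neurons, stood at 101, 81.9, 79.7, 81.9, 97.3 and 119 CPM in wildtype libraries 1 to 6. In APPko libraries 1 to 8 it stood at 92.3, 82.7, 95.3, 77.1, 68.1, 90.4, 88.7 and 91.0 CPM. Wildtype library 6 was highest and APPko library 5 lowest, and the medians were 89.6 and 89.5 CPM. The log2 fold change was -0.12 (SE 0.11, 95% interval -0.35 to 0.10, edgeR adjusted p = 0.56). With the GC trend removed it was -0.37 (unadjusted p = 0.0011, adjusted p = 0.064), and without wildtype libraries 2 and 3 it was -0.21 (adjusted p = 0.45). Its transcripts have a mean GC content of 58.5%, the highest of the 6 genes, and those of Slc12a2 have 41.8%, the lowest. The gene (ENSMUSG00000017740.17) spans chromosome 2 from 164960802 to 164999731 on the plus strand.

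Slc12a2, which carries chloride in, stood at 65.1, 82.3, 76.0, 55.5, 69.6 and 81.4 CPM in wildtype libraries 1 to 6. In APPko libraries 1 to 8 the levels were 56.8, 63.1, 56.5, 66.3, 55.7, 55.7, 59.1 and 62.0 CPM. All 8 APPko libraries lay below the wildtype mean, and wildtype library 4 lay below all of them. The means were 71.7 ± 10.3 CPM (SD, n = 6) and 59.4 ± 4.00 CPM (SD, n = 8), with a log2 fold change of -0.27 (SE 0.10, 95% interval -0.47 to -0.07). The unadjusted p was 0.011, a level under 0.05 that 20.4% of all tested genes reached, and the edgeR adjusted p was 0.12. It passed the threshold without wildtype library 4 (log2 fold change -0.33, adjusted p = 0.033) and among f libraries alone (-0.34, adjusted p = 0.047). Those fits called 1436 of 22579 and 3672 of 23580 tested genes, and wildtype libraries 2 and 3 are among the f libraries. Without wildtype libraries 2 and 3 the log2 fold change of Slc12a2 was -0.19 (adjusted p = 0.485). The gene (ENSMUSG00000024597.11) lies on chromosome 18 from 57878678 to 57946821 on the plus strand.

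Markers of the cells that carry these transporters were measured beside them, and their part in the values was not tested. The 8 neuronal markers summed to 3724 to 6520 CPM in wildtype and 3701 to 5005 CPM in APPko, the 8 markers of inhibitory neurons to 901 to 1963 and 885 to 1483 CPM, the 7 astrocyte markers to 6109 to 8497 and 5389 to 8115 CPM, and the 6 oligodendrocyte markers to 481 to 1390 and 543 to 909 CPM. The groups overlapped in each list, and none of these 29 marker genes passed the test. Wildtype libraries 2 and 3 had the neuronal sums 6077 and 6520 CPM. The 4 markers of choroid plexus and ependyma, an epithelium rich in NKCC1, summed to 3.74 to 5.27 CPM in wildtype and 2.75 to 6.74 CPM in APPko, with the choroid plexus gene Ttr at means of 0.888 and 0.672 CPM. No listed marker was at 0 in every library.

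**Figure D2:**
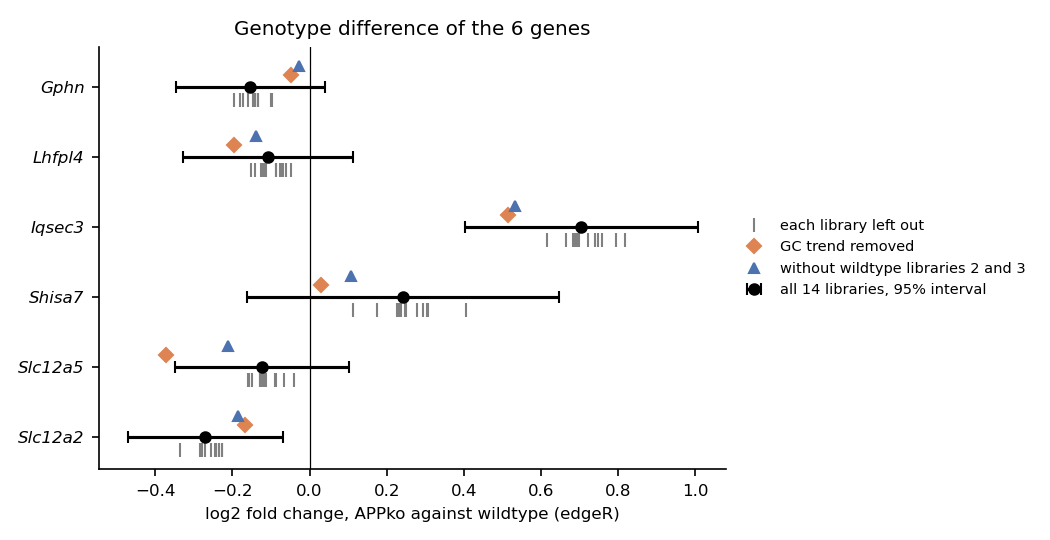
Log2 fold change of APPko against wildtype for each gene (horizontal axis, edgeR), as the value from all 14 libraries with its 95% interval (black), with each library left out (grey ticks), with the GC trend removed (orange) and without wildtype libraries 2 and 3 (blue). Iqsec3 stays between 0.52 and 0.82 in the settings drawn, and Slc12a5 moves from -0.12 to -0.37 with the GC trend removed.

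The ratio of Slc12a5 to Slc12a2 was computed within each library from counts per kilobase of exon (7.447 and 10.92 kb), so that library scaling cancels. It was 2.27, 1.46, 1.54, 2.16, 2.05 and 2.13 in wildtype libraries 1 to 6. In APPko libraries 1 to 8 it was 2.38, 1.92, 2.47, 1.71, 1.79, 2.38, 2.20 and 2.15. Transcripts of Slc12a5 thus exceeded those of Slc12a2 per kilobase in all 14 libraries of whole tissue, and the low values were wildtype libraries 2 and 3. In wildtype library 2 the counts were 1783 for Slc12a5 and 1791 for Slc12a2, so the order there rests on the exon lengths. The mean ratio of the 6 wildtype libraries was 1.94 ± 0.35 (SD), and that of the 8 APPko libraries 2.13 ± 0.29 (SD). The difference on the log2 scale was 0.14, with an interval of -0.13 to 0.42 from inverting the test (two-sided exact permutation test over 3003 splits, p = 0.28). This is smaller than the spread between libraries of a genotype (SD 0.28 in wildtype and 0.20 in APPko on the log2 scale).

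The direction of this small difference turned in 2 settings. It was -0.030 without wildtype libraries 2 and 3 (exact permutation p = 0.77) and -0.22 with the GC trend removed (exact permutation p = 0.069). The fitted GC trend alone, for Slc12a5 minus Slc12a2 on the log2 scale, was 0.006, -0.74, -0.39, -0.17, -0.12 and 0.17 in wildtype libraries 1 to 6. In the APPko libraries this fitted trend was 0.001 to 0.30. Among f libraries the ratio was 1.76 ± 0.45 for wildtype (SD, n = 3), against 2.12 ± 0.31 for APPko (SD, n = 7), a log2 difference of 0.29 (exact permutation p = 0.17). In m libraries it was 2.05 to 2.16 in 3 wildtype libraries and 2.15 in the single APPko library.

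**Figure D3:**
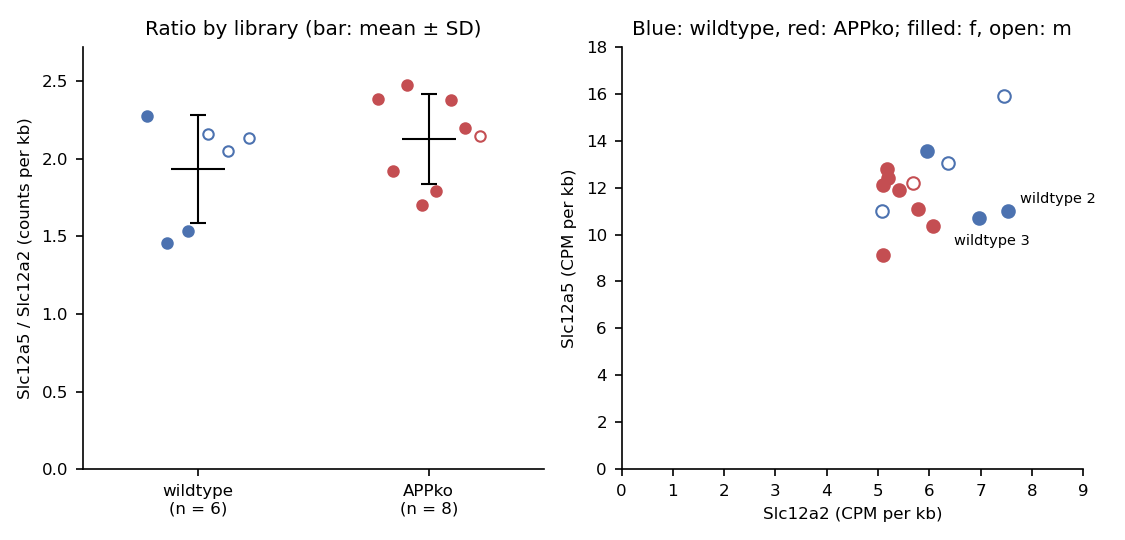
Left, ratio of Slc12a5 to Slc12a2 counts per kilobase of exon in each library with mean ± SD, and right, the level of Slc12a5 against that of Slc12a2 in CPM per kilobase (blue wildtype, red APPko, filled f, open m). Wildtype libraries 2 and 3, at ratios of 1.46 and 1.54, combine high Slc12a2 with Slc12a5 levels among the lower ones of wildtype.

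Per kilobase of exon, the order of the 6 mean levels was the same in both genotypes. In wildtype, Gphn was highest at 26.2 ± 3.79 CPM per kb, followed by Slc12a5 at 12.5 ± 2.04 CPM per kb (SD, n = 6). Lhfpl4 at 6.96 ± 0.89 and Slc12a2 at 6.56 ± 0.95 CPM per kb were closer to each other than their spread. Iqsec3 at 2.37 ± 0.64 and Shisa7 at 1.27 ± 0.41 CPM per kb were lowest, at the 51.1th and 38.9th percentile of all tested genes, against the 90.7th for Gphn. In APPko the levels were 23.5 ± 1.02 for Gphn, 11.5 ± 1.23 for Slc12a5, 6.46 ± 0.80 for Lhfpl4, 5.44 ± 0.37 for Slc12a2, 3.87 ± 0.49 for Iqsec3 and 1.51 ± 0.33 CPM per kb for Shisa7 (SD, n = 8). The length is that of all annotated exons, so a gene with long exons that the tissue does not use reads too low.

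Homologues were compared on the same scale of CPM per kb. Iqsec1 and Iqsec2, exchange factors of excitatory synapses, stood at 3.15 and 3.14 CPM per kb in wildtype and 3.09 and 3.92 CPM per kb in APPko, and neither passed the test (log2 fold change -0.02 and 0.32, edgeR adjusted p = 0.96 and 0.26). Mean Iqsec3 was below both in wildtype and lay above Iqsec1 in APPko. Among the potassium-chloride cotransporters, Slc12a4 stood at 2.88 and 3.39 and Slc12a7 at 0.16 and 0.26 CPM per kb in wildtype and APPko, both below Slc12a5. Slc12a7 had the smallest p of the 6 other tested cotransporter genes (2.08 ± 0.48 to 3.33 ± 0.96 CPM, log2 fold change 0.67, adjusted p = 0.10), and none of them passed in the fit used throughout. With DESeq2 Slc12a7 passed (adjusted p = 0.0425), as it did among f libraries alone (edgeR adjusted p = 0.026), where 3672 of 23580 tested genes were called.

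The other genes of the pathway were taken as 7 lists with 97 symbols, of which 96 were in the files and 91 were tested. 2 were higher and 3 lower in APPko, with a median log2 fold change of -0.08, and 36 of them were positive. Among all 22150 tested genes 209 were higher and 312 lower, 10699 had a positive log2 fold change, and the median was -0.01. With total counts in place of TMM, 236 of all tested genes were higher and 119 lower. Of 23 partners of the inhibitory postsynapse, 1 passed. Dynll1, a dynein light chain that binds gephyrin, rose from 549 ± 172 CPM (range 444 to 882) to 897 ± 167 CPM (range 663 to 1207), 1.63-fold (edgeR adjusted p = 0.037). The call of Dynll1 held in 4 of 14 leave-one-out fits, which left out wildtype library 1, 4 or 5, or APPko library 3, and the adjusted p was at most 0.091 in the rest. Without wildtype libraries 2 and 3 together its log2 fold change was 0.59 (adjusted p = 0.187). Nlgn2, which encodes neuroligin-2, stood at 49.3 ± 13.8 and 61.8 ± 4.99 CPM (adjusted p = 0.198).

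The receptors held by the scaffold form a longer list than the scaffold itself, so their counts of called genes were not compared. Of 16 tested subunits of GABA-A and glycine receptors, 3 were lower and 1 higher (2.35% of all tested genes were called), 2 had positive and 14 negative log2 fold changes, and the median was -0.46 against -0.01 over all tested genes. Glra2, a glycine receptor alpha subunit, fell from 17.0 ± 2.86 to 11.6 ± 1.33 CPM (-0.55, adjusted p = 0.031), and lost the call when any of wildtype libraries 2 and 3 and APPko libraries 1, 2, 4, 5, 6 and 7 was left out (adjusted p up to 0.095). Gabra2, the alpha2 subunit, rose from 227 ± 73.5 to 388 ± 85.8 CPM (0.77, adjusted p = 0.043), and among leave-one-out fits kept its call in those without wildtype library 1, 2 or 4 (adjusted p up to 0.092 in the rest). Without wildtype libraries 2 and 3 together, the log2 fold change was 1.08 for Gabra2 (adjusted p = 0.014) and -0.44 for Glra2 (adjusted p = 0.174). Among f libraries alone it was 0.46 for Gabra2 (edgeR adjusted p = 0.131) and -0.70 for Glra2 (adjusted p = 0.00495). That fit called 3672 of 23580 tested genes. None of the 8 inhibitory-neuron markers had a positive log2 fold change. Of the 8 neuronal markers 1 was positive, of the 6 dentate granule cell markers 1, of the 4 markers of CA pyramidal cells 2 and of the 7 astrocyte markers 3. None of these markers passed the test, and their part in these values was not tested.

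In the fit used throughout, with all 14 libraries, the remaining lists held no called gene. In the molybdenum cofactor list, 3 of 6 genes had positive log2 fold changes (median 0.01), and the sulfite oxidase gene Suox had the smallest p (12.4 ± 1.99 and 10.9 ± 1.32 CPM, edgeR adjusted p = 0.41). Of 13 tested homologues of the 6 genes, 8 were positive (median 0.15), led by Shisa5 at 30.1 ± 9.66 and 43.2 ± 6.47 CPM (adjusted p = 0.086). Of 12 regulators of the cotransporters, 5 were positive (median -0.06). Their smallest p was that of Stk39, the SPAK kinase that phosphorylates NKCC1 and KCC2 (64.6 ± 18.7 and 51.4 ± 5.50 CPM, adjusted p = 0.185), and Wnk1, a kinase upstream of it, had ranges of 138 to 222 and 155 to 218 CPM. Of 15 genes for other chloride channels and exchangers, 5 were positive (median -0.06), and the endosomal exchanger gene Clcn4 had the smallest p (324 ± 126 and 219 ± 15.4 CPM, adjusted p = 0.075). Without wildtype library 4 Shisa5 passed at an adjusted p of 0.010 and Clcn4 at 0.033, and without wildtype library 5 Clcn4 passed at 0.044. These 2 fits called 1436 of 22579 and 615 of 22568 tested genes. With DESeq2, which called 1801 genes, Shisa5 (adjusted p = 0.032) and Clcn4 (0.022) passed. Among f libraries alone, where 3672 of 23580 genes were called, Shisa5 (edgeR adjusted p = 0.0022), Stk39 (0.017) and Clcn4 (0.0022) passed. Clcn4 also passed with the header suffix as covariate (edgeR adjusted p = 0.019, 1446 genes called). Shisa5 passed with no filter on low counts (edgeR adjusted p = 0.049). Without wildtype libraries 2 and 3 together the log2 fold change moved from -0.57 to -0.15 for Clcn4 (adjusted p = 0.529), from 0.52 to 0.32 for Shisa5 (adjusted p = 0.373), from -0.19 to -0.04 for Suox (adjusted p = 0.93) and from -0.33 to -0.11 for Stk39 (adjusted p = 0.756).

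**Figure D4:**
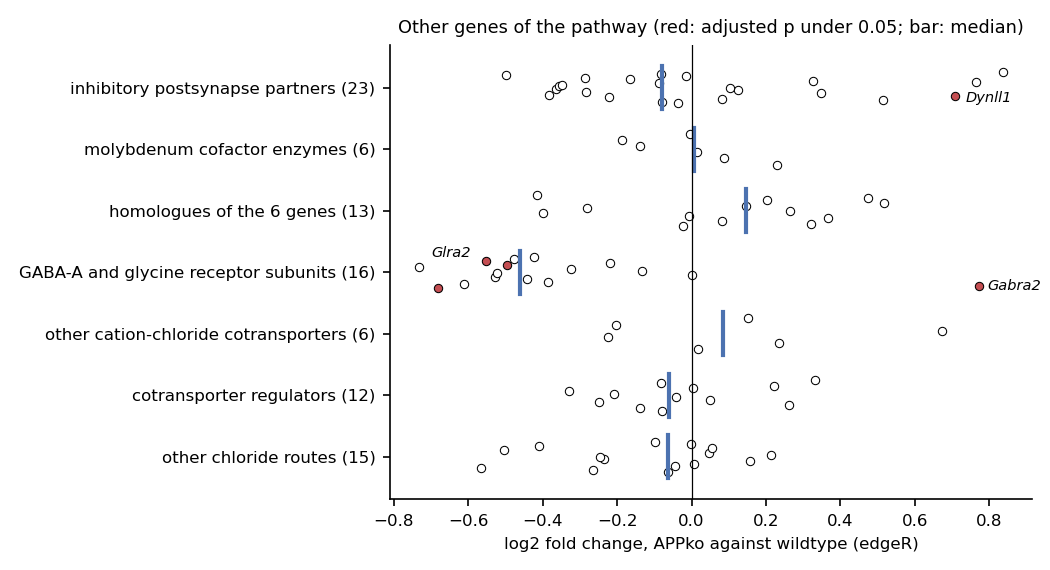
Log2 fold change of APPko against wildtype (horizontal axis, edgeR) of every tested gene in the 7 pathway lists, with the number of genes in parentheses, red for an adjusted p under 0.05 (3 of these named) and a bar at each list's median. The subunit list has its median at -0.46 with Gabra2 alone far to the right, and the other lists have medians between -0.08 and 0.15.

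The 6 genes were also compared with each other across the libraries. Their log2 CPM was centred within genotype and compared over 14 libraries in 15 pairs. The largest rank correlation was that of Lhfpl4 and Slc12a5 (Pearson r = 0.68, permutation p = 0.011, adjusted 0.10, Spearman rho = 0.76, permutation p = 0.0029, adjusted 0.043), with r = 0.73 without the 2 libraries farthest from the median of Lhfpl4. Within genotypes r was 0.82 in wildtype and 0.56 in APPko. Iqsec3 and Slc12a2 had the largest negative one, which did not pass after adjustment (r = -0.75, permutation p = 0.014, adjusted 0.10, rho = -0.68, permutation p = 0.023, adjusted 0.17). It was r = -0.49 without wildtype libraries 4 and 2, -0.90 within wildtype and -0.23 within APPko. For the 2 transporters of the ratio, Slc12a5 and Slc12a2, r was 0.11 (permutation p = 0.77, adjusted 0.90) and rho was -0.07 (permutation p = 0.83, adjusted 0.91). All genes share library depth and composition, so a small p does not show a link particular to a pair. The share of all gene pairs that reach such correlations was not computed. The spread between libraries was wider in wildtype for each of the 6 genes, and this was not tested. Coefficients of variation were 12.8% (Lhfpl4) to 31.9% (Shisa7) in wildtype and 4.35% (Gphn) to 21.99% (Shisa7) in APPko. The share of all tested genes with a wider spread in wildtype was not computed. The wider spread is thus not shown to be particular to the 6 genes. Outside them, Clcn4 also varied more in wildtype (324 ± 126 CPM, APPko 219 ± 15.4 CPM). Lhfpl3 varied more in APPko (20.2 ± 4.78 CPM, wildtype 26.6 ± 1.48 CPM).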

How the data were processed

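Dentate gyri of 14 cultures were sequenced singly after cDNA amplification, and no molecular identifiers are described, so reads need not be independent molecules. The authors deposited unnormalised counts for each gene symbol. The submitters' processing notes name cutadapt (3.5), STAR (2.7.8a), featureCounts (2.0.1) and the builds GRCm38 and mm10. How strand, multi-mapping and duplicate reads were handled is not given in the labels. Other values, namely start and end positions, come from the GENCODE annotation deposited by the authors. 107 symbols stand for more than 1 locus, none of them one of the 6 genes.

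The fit ran on the 22150 genes kept by edgeR's filter, with TMM scaling, robust quasi-likelihood tests (R 4.3.3, edgeR 4.0.16), no covariate, and Benjamini-Hochberg adjustment over all of them at 0.05. The procedure was tested on simulated data. It recovered 23.7% of 76 genes changed 1.5-fold, 69.1% of 55 changed 2-fold and 94.9% of 59 changed 4-fold. Of 21134 unchanged genes 3 were called. Small differences can thus be missed. The simulated counts were drawn gene by gene, without shifts that many genes of a library share, such as a GC trend. The 3 calls among unchanged genes thus do not measure false calls in the real libraries. All 43 pairs of libraries within genotypes differed beyond sampling noise. The ratio was tested by exact permutation over libraries (scipy 1.17.1). Alternatives used DESeq2 1.42.0, limma 3.58.1, other scalings and filters, a replicate block, the header suffix, f libraries alone, and per-library lowess trends (span 0.3) over exon length (union of annotated exons) or GC content (mean over GENCODE transcripts, known for 99.9% of tested genes). Each library was also left out in turn.

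Genes named are the 6 genes, App, every called gene and the gene with the smallest p of each pathway list, and the 3 genes of at least 10 CPM most like each of the 6, and a few genes that this rule names are not reported here. Iqsec1, Iqsec2, Slc12a4, Nlgn2, Wnk1, Prox1 and Ttr were named for their role after their values were seen. The 6 genes and the lists were chosen with earlier results of these data known.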

Additional observations from a re-analysis of the deposited data

How the results depend on the processing

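The log2 fold changes of the 6 genes kept their sign in all 28 alternatives. Iqsec3 passed in 12 of 14 alternatives and in 8 of 14 fits without a single library (log2 fold change 0.52 to 0.82 over all). The number of the 6 genes called higher was 0 with the replicate number as a block and 0 without wildtype libraries 2 and 3, and 0 to 1 without single libraries. The number called lower was 1 among f libraries alone and 0 to 1 without single libraries. The ratio of Slc12a5 to Slc12a2 turned to -0.030 without wildtype libraries 2 and 3 and to -0.22 with the GC trend removed, and the cause was not tested. Without single libraries it was 0.07 to 0.19.

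Of all tested genes 521 were called, against 1801 with DESeq2, 1446 with the header suffix as a covariate, 3672 among f libraries alone, 346 with a length trend and 223 with the GC trend removed, 35 without wildtype libraries 2 and 3, and 38 to 1436 in leave-one-out fits. The count was 38 to 312 with wildtype library 2 or 3 or any APPko library but 3 left out, and 967 and 1436 with wildtype libraries 1 and 4 left out. Replicate numbers run 1 to 6 in wildtype and 1 to 8 in APPko, and nothing in the labels ties them, so the block holds 6 pairs. Same-numbered libraries correlated at -0.34 to 0.19, and 1 of 6 wildtype libraries correlated best with its own number. With the replicate number as a block 21 genes were called, Iqsec3 had an adjusted p of 0.085 (edgeR), and the paired difference of the log2 ratio was 0.13 (exact sign-flip permutation p = 0.44). Depth limits Shisa7 most, with 98 counts in 1 library.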

Other observations

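For each of the 6 genes, the genes of most similar variation were sought among 9736 genes with a mean of at least 10 CPM, by Pearson r of log2 CPM centred within genotype over 14 libraries. These values are descriptions, since all points share library depth and composition. Lhfpl4 had the closest match, Mepce, at r = 0.97 (0.98 without wildtype libraries 2 and 3), and its next matches, Bag6 and Kcnj9, were both at 0.89. Gphn was matched best by Abraxas2 (0.93), with Gm48992 at 0.92, Iqsec3 by Sfxn3 (0.89), Cttn (0.87) and Adgrg1 (0.87), and Shisa7 by Skiv2l (0.90), Wipi1 (0.86) and Nisch (0.86). Slc12a5 was matched best by Rusc1 (0.89), Mlycd (0.88) and Ripor1 (0.86), and Slc12a2 by Evl (0.90), Abhd13 (0.85) and Rasa1 (0.84). No gene was among the 3 best matches of more than 1 of the 6 genes. Sfxn3, the closest match of Iqsec3, had 18.4 ± 7.27 CPM in the 6 wildtype libraries and 27.8 ± 4.04 CPM (SD) in the 8 of APPko, with an edgeR adjusted p of 0.089.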
